A study of Saccharomyces cerevisiae with 3 samples.

Results

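The left ends of chromosomes XV and IX of Saccharomyces cerevisiae each carry a hexose transporter gene beside an isomaltase gene, and 9 genes of these ends were followed through a comparison of 3 strains by array comparative genomic hybridisation. They were CSS3 (YOL159C), ENB1 (YOL158C), IMA2 (YOL157C), HXT11 (YOL156W) and HPF1 (YOL155C) on chromosome XV, and IMA3 (YIL172C), YIL171W, HXT12 (YIL170W) and CSS1 (YIL169C) on chromosome IX, in order from the telomere side. They are 9 of the 6178 ORFs on the array, and all 9 had a value in every sample. The genes were chosen by their place in these ends and by their measured ratios in all 3 samples, so those ratios are given as a description. Where calls from the fit over all ORFs are counted for these genes, nothing is read from them.

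The strains were R2 IVo, labelled an intraspecific hybrid, and its parents Sc1 and Sc2, labelled parental strain 1 and 2. Per the labels, cultivation and drying of the yeast followed an industrial protocol, and the genomic DNA was digested with Hinf I, a restriction enzyme. A sample is 1 pair of strains (R2 IVo with Sc1, R2 IVo with Sc2, Sc1 with Sc2), 3 in all, on duplicate arrays with the dyes exchanged, deposited as 1 log ratio per ORF. The sources used here give no ploidy, probe sequences or number of cultures.

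Hexose transporters of the HXT family carry glucose and related sugars into the yeast cell. HXT11 encodes a member of this family that is also linked to drug resistance, and HXT12 together with the adjoining YIL171W is annotated as a pseudogene in the reference strain. IMA2 and IMA3 encode isomaltases, which split isomaltose and related sugars inside the cell. ENB1 encodes a transporter that takes up iron bound to the bacterial siderophore enterobactin. HPF1 encodes a heavily mannosylated protein that reduces protein haze in wine, CSS1 encodes a related secreted protein, and the role of CSS3 is less well defined. Genes near chromosome ends have close relatives at other ends and often vary in copy number between strains.

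The values are hybridisation ratios, given on the log2 scale as first-named over second-named strain and centred on the median ORF of the sample. The base of the logarithm and the direction are the likely readings of the deposited values and the titles, since no source states them. If the common direction were turned, every sign and every order of strains below would turn with it: the 3rd highest ratio would be the 3rd lowest, and a signal given as higher in Sc2 would be higher in the other strain. A lower ratio can reflect fewer copies, sequence that differs from the probe, or fewer related copies elsewhere, and these cannot be told apart here. In 7 of the 27 cells of the 9 genes the deposited number was a whole number of at least 1000 in size and was divided by 1000. These cells belong to HXT11, HXT12, CSS3 (each with 2) and YIL171W (1), and the other 5 genes hold none. Each pair of strains has 1 value, so the error is the SE of a limma fit that ties the 3 samples together. The median SE over 6123 ORFs was 0.064.

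On chromosome IX, HXT12 and YIL171W gave higher ratios in R2 IVo than in Sc1, and IMA3 had a smaller ratio of the same sign. The HXT12 ratio was 2.71 for R2 IVo over Sc1, −0.015 for R2 IVo over Sc2 and −1.32 for Sc1 over Sc2. It was the 3rd highest of 6123 ORFs for R2 IVo over Sc1, a 6.56-fold ratio (0.153 if turned), while R2 IVo and Sc2 were nearly level in the direct sample. The YIL171W ratio was 1.08, 0.090 and −0.64 in the same order, and that of IMA3 was 0.52, −0.003 and −0.34. In the direct samples the 3 neighbouring ORFs shared their signs against Sc1 and a near-zero ratio of R2 IVo over Sc2. The sizes against Sc1 were larger from IMA3 through YIL171W to HXT12. By way of Sc1, however, the ratio of R2 IVo over Sc2 was 0.18 for IMA3, 0.44 for YIL171W and 1.39 for HXT12. The next gene inward, CSS1, was at 0.064, 0.095 and 0.15, near 0 in each pair. The fitted differences of R2 IVo over Sc1 were 2.24 ± 0.27 (SE) for HXT12, 0.96 ± 0.090 for YIL171W, 0.46 ± 0.070 for IMA3 and 0.024 ± 0.065 for CSS1.

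On chromosome XV, HXT11 gave its weakest signal in Sc1, by unequal amounts against the other strains. It was at 1.49 for R2 IVo over Sc1, 0.29 for R2 IVo over Sc2 and −2.86 for Sc1 over Sc2. The last value was the 3rd lowest of 6123 ORFs, a 7.24-fold higher signal in Sc2 than in Sc1, but the path through R2 IVo gave only −1.20. Its neighbours did not share this size of difference. IMA2, the isomaltase gene next to it, was at 0.030, −0.17 and −0.32, and HPF1, the haze-protective mannoprotein gene on its other side, was at 0.16, −0.019 and −0.056. ENB1 was at 0.24 for R2 IVo over Sc1 and 0.30 for R2 IVo over Sc2, with the parents nearly level at −0.015. The fitted values of ENB1 were 0.26 ± 0.063 over Sc1 and 0.27 ± 0.063 over Sc2. These comparisons share the R2 IVo DNA, so an error in it would enter both.

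CSS3 lay in the same chromosome end as HXT11 but went with the other parent. Its ratio was 0.032 for R2 IVo over Sc1, −2.42 for R2 IVo over Sc2 and −1.18 for Sc1 over Sc2. In the direct samples R2 IVo and Sc1 were level and both were below Sc2, but by way of Sc2 the ratio of R2 IVo over Sc1 was −1.23. The value over Sc2 was the 2nd lowest of 6123 ORFs, a 5.34-fold higher signal in Sc2 than in R2 IVo. The fitted differences were −2.00 ± 0.25 for R2 IVo over Sc2, −1.61 ± 0.25 for Sc1 over Sc2 and −0.39 ± 0.25 for R2 IVo over Sc1.

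**Figure D1:**
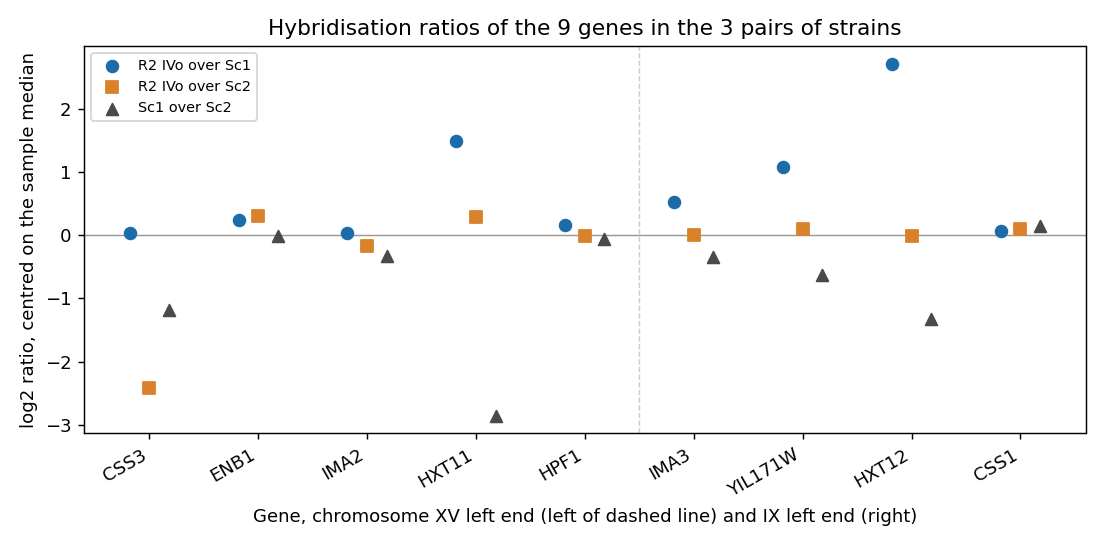
Centred log2 hybridisation ratio (vertical axis) of each of the 9 genes, with 1 point per pair of strains (circles R2 IVo over Sc1, squares R2 IVo over Sc2, triangles Sc1 over Sc2). HXT11, YIL171W and HXT12 have circles at 1.49, 1.08 and 2.71 and squares at 0.29, 0.090 and −0.015, whereas CSS3 has its circle at 0.032 and its square at −2.42.

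By the direct R2 IVo samples, the hybrid stood near the level of Sc2 for the hexose transporter sequences and near that of Sc1 for CSS3. For the 3 genes whose Sc1 over Sc2 ratio was at least 1 in size, the R2 IVo samples gave the position of the hybrid on a scale with Sc2 at 0 and Sc1 at 1. It was 0.005 for HXT12, −0.24 for HXT11 and 0.99 for CSS3. These positions rest on 1 value per sample and have no error of their own, and the indirect paths given with the closures below do not place R2 IVo level with that parent for any of the 3. In fitted levels the order for HXT12 and YIL171W was R2 IVo, Sc2, Sc1, with R2 IVo above Sc2 by 0.45 ± 0.27 and 0.21 ± 0.090. For HXT11 the order was Sc2, R2 IVo, Sc1, with R2 IVo at −0.26 ± 0.32 relative to Sc2, within 1 SE. For CSS3 it was Sc2, Sc1, R2 IVo, and the last neighbours were apart by 0.39 with an SE of 0.25. For IMA3 the order was R2 IVo, Sc2, Sc1, with R2 IVo at 0.057 ± 0.070 and Sc1 at −0.40 ± 0.070 relative to Sc2. For IMA2 both R2 IVo (−0.21 ± 0.066) and Sc1 (−0.28 ± 0.066) were below Sc2. HPF1 and CSS1 stayed within 0.14 of Sc2 in both strains.

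**Figure D2:**
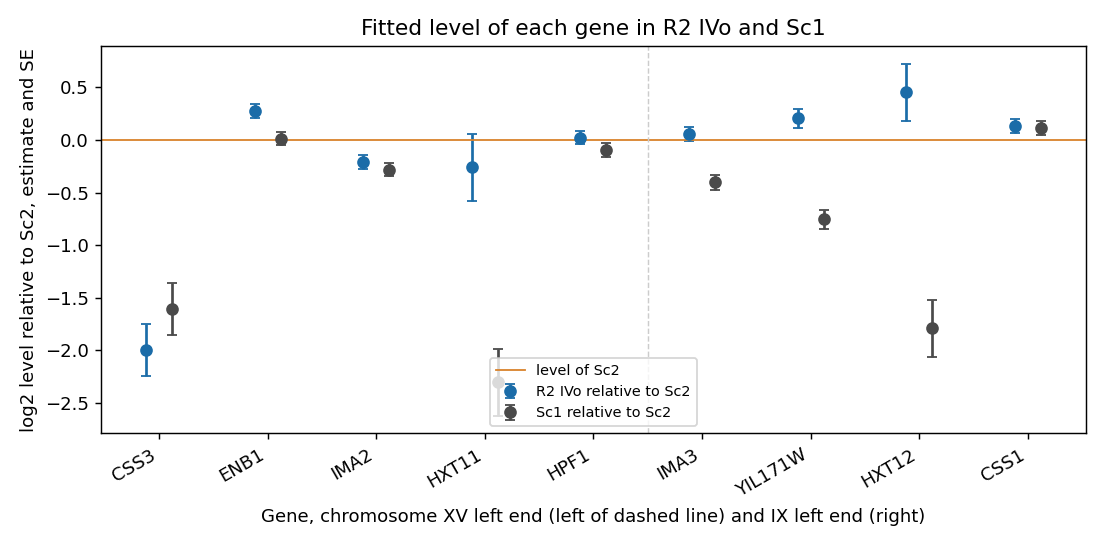
Fitted log2 level of each of the 9 genes in R2 IVo and in Sc1 relative to Sc2 (horizontal line at 0), with bars for ±1 SE of the limma fit. Sc1 is lowest at HXT11 (−2.30) and HXT12 (−1.79), where R2 IVo is at −0.26 and 0.45, and both strains are low at CSS3 (−2.00 and −1.61).

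In the fit over all 6123 ORFs (limma, Benjamini-Hochberg adjusted p under 0.05), 2 of the 9 genes were called for R2 IVo over Sc1 (HXT12 and YIL171W, both higher in R2 IVo), where 0.670% of all ORFs were called. For R2 IVo over Sc2, 1 was called (CSS3, lower in R2 IVo), with 0.915% of all ORFs called. For Sc1 over Sc2, 4 were called (HXT11, CSS3, HXT12 and YIL171W, all lower in Sc1), with 1.98% of all ORFs called. The genes were picked with these contrasts known, so nothing is read from the counts. The fitted HXT11 difference over Sc1, 2.04 ± 0.32, was nearly as large as that of HXT12 and was not called. IMA2, IMA3 and ENB1 were not called in any comparison of this fit, although some of their differences were several times the SE. Their lowest limma adjusted p was 0.161, 0.0506 and 0.235. With robust moderation only YIL171W among the 9 was called, for R2 IVo over Sc1 and for Sc1 over Sc2, and with the prior degrees of freedom halved none was. The median fitted value of the 9 genes was 0.26, 0.057 and −0.40 in the 3 comparisons, beside 0.003, −0.0003 and 0.002 over all ORFs.

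The 3 samples form a triangle, in which R2 IVo over Sc1 plus Sc1 over Sc2 should equal R2 IVo over Sc2. The amount by which the sum missed (closure) had a spread over all ORFs of 0.19 (SD), with a 99th percentile of 0.56 in size. Of the 9 genes, 3 were beyond that percentile. HXT11 had a closure of −1.66, the 2nd largest in size of 6123 ORFs, HXT12 one of 1.41, the 4th largest, and CSS3 one of 1.27, the 7th largest. The other 6 genes were between −0.13 and 0.35. For HXT11 the direct R2 IVo over Sc2 ratio of 0.29 stood against −1.37 by way of Sc1, and the direct Sc1 over Sc2 ratio of −2.86 against −1.20. For HXT12 the direct R2 IVo over Sc1 ratio of 2.71 stood against 1.31 by way of Sc2, and the direct Sc1 over Sc2 ratio of −1.32 against −2.73. For CSS3 the direct R2 IVo over Sc2 ratio of −2.42 stood against −1.15, and the direct R2 IVo over Sc1 ratio of 0.032 against −1.23. The sign of the Sc1 over Sc2 difference was the same by both paths for all 3 genes, but its size was not settled to within a log2 unit. For the level of R2 IVo relative to Sc2, HXT11 changed sign between the paths, and HXT12 was at −0.015 by one path and 1.39 by the other.

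**Figure D3:**
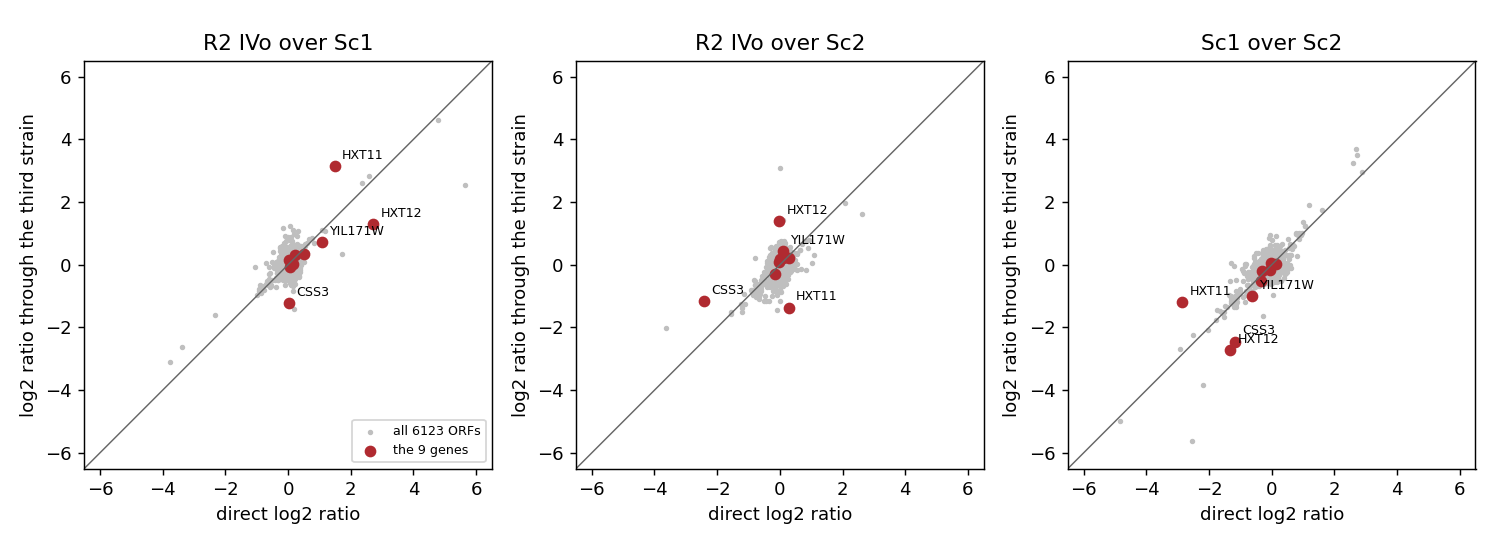
Direct centred log2 ratio (horizontal axis) against the ratio computed through the third strain (vertical axis) for 6123 ORFs (grey) and the 9 genes (red), 1 panel per pair of strains, with the line of equality. HXT11 and HXT12 lie on opposite sides of the line in every panel, and YIL171W lies close to it.

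The left end of chromosome X is the third end at which an isomaltase gene (IMA4) stands beside a hexose transporter gene (HXT9), and in the reference order it is matched to the chromosome IX end by VTH2 and VTH1, related genes for vacuolar sorting receptors, on the telomere side. HXT9 was at 2.60 for R2 IVo over Sc1, −0.091 for R2 IVo over Sc2 and −2.94 for Sc1 over Sc2, so all 3 transporter sequences were low in Sc1. In the direct sample R2 IVo and Sc2 were near level at HXT9 and HXT12 and 0.29 apart at HXT11, while by way of Sc1 the ratio of R2 IVo over Sc2 was −0.34 at HXT9, 1.39 at HXT12 and −1.37 at HXT11. HXT12 differed from HXT9 by 0.12 for R2 IVo over Sc1 but by 1.61 for Sc1 over Sc2. HXT11 differed from HXT9 by 0.080 for Sc1 over Sc2 but was 1.11 lower for R2 IVo over Sc1. Among the isomaltase genes, IMA4 was at 0.83, 0.013 and −0.68, IMA3 had the same signs against Sc1 at smaller sizes, and IMA2 was 0.49 below IMA3 for R2 IVo over Sc1. VTH1 and VTH2 were near 0 in each pair and within 0.14 of each other. Of the 8 ORFs listed for the chromosome X end, 5 were called higher in R2 IVo than in Sc1 and lower in Sc1 than in Sc2 (IMA4, YJL220W, HXT9, YJL218W and REE1), and 3 were not called in any comparison (PAU1, VTH2 and IMA5). None of the 8 was called for R2 IVo over Sc2 by limma, and 1 had an unadjusted p under 0.05. The shares of all ORFs called in either direction were 0.670% for R2 IVo over Sc1, 0.915% for R2 IVo over Sc2 and 1.98% for Sc1 over Sc2.

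Inward of the transporter gene the ends parted. On chromosome X the next genes, YJL218W and REE1, were at 4.78 and 5.63 for R2 IVo over Sc1 in the direct sample. REE1 had the largest closure of all ORFs, 3.09, and was at 2.55 by way of Sc2, with a fitted value of 4.60 ± 0.58. On chromosome IX the next gene, CSS1, was at 0.064, and on chromosome XV the next gene, HPF1, was at 0.16. HPF1 and CSS1, which encode related proteins, differed from each other by at most 0.21 in any pair of strains. Whether the probes of HXT9, HXT11 and HXT12, or of the IMA genes, bind DNA of one another was not tested, so the 3 transporter ratios may not be separate differences.

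**Figure D4:**
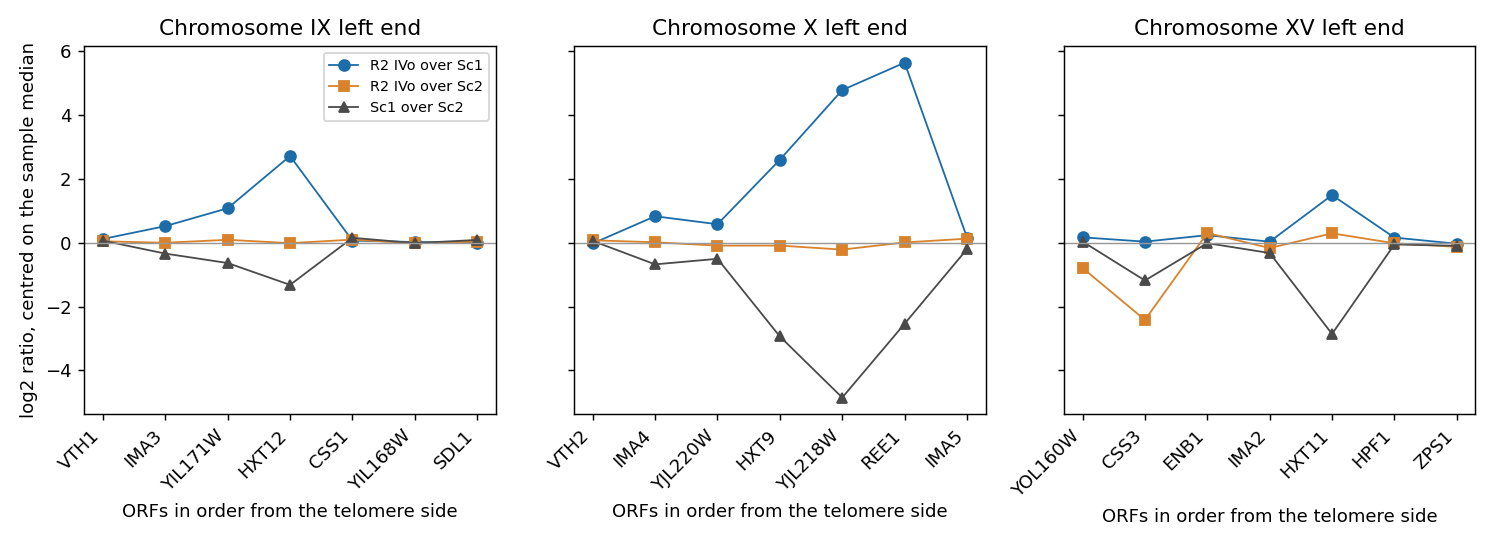
Centred log2 ratio (vertical axis) of neighbouring ORFs in order from the telomere side at the left ends of chromosomes IX, X and XV, 1 line per pair of strains. The R2 IVo over Sc1 line climbs from IMA3 to HXT12 at the IX end. At the X end it climbs from IMA4 to HXT9 after a dip at YJL220W. The direct R2 IVo over Sc2 line stays near 0 at the IX and X ends. At the XV end the lines part at HXT11 and, with another pattern, at CSS3. They also part at YOL160W, the outer neighbour of CSS3, where R2 IVo over Sc2 is at −0.79.

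The ORFs around the 9 genes were mostly near level. Of 24 flanking ORFs (every measured ORF further out and the 6 nearest further in, on both chromosomes), 0 were called by limma for R2 IVo over Sc1, where 2 had an unadjusted p under 0.05, and 0 for Sc1 over Sc2, where 2 also had. Of all 6123 ORFs, 0.670% and 1.98% were called in these comparisons, and 489 and 586 had an unadjusted p under 0.05. For R2 IVo over Sc2, 487 of all ORFs had an unadjusted p under 0.05 and 0.915% were called. Of the 24 flanking ORFs, 4 had an unadjusted p under 0.05 in that comparison and 1 was called. The called ORF was AAD15 (YOL165C), a putative aryl-alcohol dehydrogenase gene near the telomere of chromosome XV. AAD15 was at 0.31, 0.46 and 0.065, with a fitted value of 0.43 ± 0.063 (SE, 3 samples) over Sc2 (limma adjusted p = 0.0464). That call ended without centring, with the prior degrees of freedom halved and when ORFs with whole-number cells were left out. Its outer neighbour YOL166C was at 0.37 ± 0.063 over Sc2 and was not called. The sulfatase gene BDS1, the seripauperin gene PAU20, YOL162W and YOL163W lay between −0.068 and 0.13 in the 3 fitted comparisons.

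YOL160W, the outer neighbour of CSS3, was at 0.17 for R2 IVo over Sc1, −0.79 for R2 IVo over Sc2 and 0.036 for Sc1 over Sc2. By way of the third strain the last 2 were 0.20 and −0.96, so which of R2 IVo and Sc1 was below Sc2 depended on the path. Its closure of 0.995 was the only one among the 24 flanking ORFs beyond the 99th percentile, and its fitted value over Sc2 of −0.46 ± 0.20 was not called. Inward of HPF1, ZPS1, YOL153C, FRE7 (a metal reductase gene), GRE2, YOL150C and DCP1 (a decapping enzyme subunit gene) lay between −0.17 and 0.13 in fitted value. On chromosome IX, VTH1, YIL174W, YIL175W, the seripauperin gene PAU14 and the Y′ element ORF YIL177C, further out than IMA3, lay between −0.21 and 0.088. Inward of CSS1, YIL168W and SDL1 (serine dehydratase-like pseudogene sequence), SOA1 (a sulfonate transporter gene), YIL165C, NIT1 (a nitrilase gene) and YIL163C lay between −0.099 and 0.066.

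Among other genes of hexose uptake, HXT9 was the 1 gene called in both comparisons that involve Sc1. Of 18 listed hexose transporter and sensor genes, 1 was called for R2 IVo over Sc1 (HXT9, higher at 2.68 ± 0.077), 1 for R2 IVo over Sc2 (HXT15, higher at 0.78 ± 0.089) and 3 for Sc1 over Sc2 (HXT9, lower at −2.85 ± 0.077, and HXT15 and HXT16, higher at 1.13 ± 0.089 and 0.61 ± 0.085). With samples centred on the mode, 2 were called for R2 IVo over Sc1. In the main fit 0.670%, 0.915% and 1.98% of all ORFs were called in the 3 comparisons. The median fitted values of the list were −0.005, 0.030 and 0.055. After HXT9, the highest over Sc1 was SNF3, a glucose sensor gene, at 0.19 ± 0.066, and the lowest were HXT16 and HXT15 at −0.50 and −0.35. Over Sc2 the 2nd highest was HXT13 at 0.32 and the lowest were HXT9 and SNF3 at −0.17 and −0.12. SNF3 was also the 2nd lowest for Sc1 over Sc2, at −0.30. The transporter genes HXT1 to HXT7 lay between −0.070 and 0.18 in all 3 comparisons.

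The isomaltase relatives did not move as 1 group. Of 5 listed alpha-glucosidase genes, IMA4 was called higher in R2 IVo than in Sc1 (0.78 ± 0.066) and lower in Sc1 than in Sc2 (−0.72 ± 0.066). IMA1, on chromosome VII, was called in the opposite direction, at −0.56 ± 0.061 and 0.55 ± 0.061. IMA5 and the maltase genes MAL12 and MAL32 were not called, and the list held 0 calls for R2 IVo over Sc2 by limma, with 0 at an unadjusted p under 0.05. Among all ORFs, 0.670% were called for R2 IVo over Sc1, 0.915% for R2 IVo over Sc2 and 1.98% for Sc1 over Sc2. IMA4 and IMA5 also stand in the chromosome X list. IMA3 had the signs of IMA4, and IMA2 was at 0.072 ± 0.066 over Sc1.

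Of 11 listed genes of siderophore and iron uptake, the relatives of ENB1 in function, 0 were called by limma for R2 IVo over Sc1 and for R2 IVo over Sc2 (2 and 1 at an unadjusted p under 0.05). Calls over all ORFs were 0.670% and 0.915% in these comparisons, and 1.98% for Sc1 over Sc2. ARN1, a siderophore transporter gene, was called higher in Sc1 than in Sc2 at 0.40 ± 0.068 and was at −0.32 ± 0.068 for R2 IVo over Sc1. The ferric reductase gene FRE1 was highest over Sc1 and over Sc2 at 0.32 and 0.13, and FIT2 was next over Sc1 at 0.060. FRE2 was at 0.126 over Sc2 and 0.21 for Sc1 over Sc2, and FET3, an iron oxidase gene, and FRE2 were both at −0.082 over Sc1. The SE of FRE2 was 0.105 and its closure 0.453. Its direct values were −0.025 over Sc2 and 0.069 over Sc1, opposite in sign to the fitted ones. FIT1, a cell wall mannoprotein gene of siderophore retention, was lowest over Sc2 and for Sc1 over Sc2, at −0.26 and −0.23. FRE3 followed over Sc2 at −0.081 and FRE1 for Sc1 over Sc2 at −0.19.

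The ORFs with the most similar ratios were found by Euclidean distance over the 3 centred values, a measure of likeness over 3 samples only. The nearest to HXT11 were YJL114W, HXT9 and YBL101W-A at distances of 0.95, 1.17 and 1.53. The nearest to HXT12 were YJL114W, NUD1 and YFL-TYA at 1.25, 1.46 and 1.60, and HXT11 was at 1.99. YIL171W was nearest to IMA4 (0.27), YJL220W (0.55) and YDR215C (0.58), the first 2 of which lie beside HXT9. YJL114W, YBL101W-A and YFL-TYA, named above for HXT11 or HXT12, are Ty retrotransposon ORFs. CSS3 was nearest to YJR028W, YMR046C and YJR026W, also Ty retrotransposon ORFs, at 1.04 to 1.28. They had ratios of 0.19 to 0.26 for R2 IVo over Sc1 with values of −1.12 or lower in both comparisons with Sc2.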

How the data were processed

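The authors deposited 1 log ratio per ORF for each of 3 pairs of strains; duplicate arrays with exchanged dyes lie behind each value, per the labels. The sources used here do not name the scanner, background correction, normalisation or averaging. Spot intensities were not analysed here, signal over background is thus unknown, and the number of arrays limits the precision. Of the deposited cells, 76 held whole numbers of size 1000 or more and were divided by 1000; 5 cells of size 1 or more kept 3 decimals. Median closure size was 0.18 for the 56 complete ORFs with such a cell and 0.10 for the other 6067.

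Of 6178 ORFs, 55 with a missing value were left out. Symbols and gene order come from RefSeq assembly R64 (all 9 genes matched), and no coordinates are given because the build of the array design is not stated. Samples were centred on their medians (−0.006, 0.004 and 0.013). Strain differences were fitted across all ORFs with limma 3.58.1 in R 4.3.3 (lmFit, eBayes, 1 residual degree of freedom per ORF, prior degrees of freedom 5.30), with Benjamini-Hochberg adjustment over 6123 ORFs. The fit was tested on simulated data whose noise had the form and spread that the fit itself assumes. Whether the noise of these arrays has that form was not tested. P-values measure the misfit among 3 array samples and hold no spread between cultures. Named genes are the 9, every flanking, alpha-glucosidase and chromosome X ORF, of the hexose and iron lists the called genes and the 2 highest and 2 lowest per comparison, and the 3 nearest ORFs of 4 genes. The 9 genes and the lists were chosen with earlier results of these data known. A planned comparison of protein identity was not made because no sequences were used here. Alternatives were the centring, robust moderation, halved prior degrees of freedom, the treatment of whole-number cells and missing values, and the direct or indirect path alone.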

Additional observations from a re-analysis of the deposited data

How the results depend on the processing

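The number of the 9 genes called was 2 (R2 IVo over Sc1), 1 (R2 IVo over Sc2) and 4 (Sc1 over Sc2). It was 1, 0 and 1 without centring (31, 45 and 93 of all ORFs called) and with robust moderation (39, 52 and 113), and 0 in each with the prior degrees of freedom halved, where 3, 0 and 48 of all ORFs were called instead of 41, 56 and 121. Centring on the mode gave 4 for R2 IVo over Sc1, with HXT11 and IMA3 added, while the calls over all ORFs went from 41 to 58. With ORFs holding whole-number cells left out, 5 of the 9 genes remained to be tested and 0 were called in each comparison, and 15, 15 and 61 ORFs were called in all. Keeping ORFs with missing values changed none of the 3 counts.

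The lists were run under the same alternatives, a choice added after seeing the data, and 75 of the 108 counts of the lists and the 9 genes together were within 1.5 times. Counts of 0 that stayed at 0 are among these 75, so the share overstates how well calls held. For flanking ORFs over Sc2 the count of 1 became 0 without centring, 2 on the mode, 0 with the prior halved and 0 without whole-number ORFs. The hexose list's 1 call over Sc1 became 2 on the mode and 0 without whole-number ORFs. Its 1 over Sc2 became 0 with the prior halved and 0 without those ORFs, and its 3 between the parents became 1 under each of these. The alpha-glucosidase list's 2 calls over Sc1 and 2 between the parents became 0 with the prior halved. The iron list's 1 became 0 without centring, with the prior halved and without whole-number ORFs. The chromosome X list's 5 calls over Sc1 became 3 without centring, 2 with the prior halved and 1 of 5 tested without whole-number ORFs, and its 5 between the parents became 2 under both of the latter. The cause of these shifts was not tested, beyond the fewer ORFs tested where they were left out.

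For the fitted values of the 9 genes, 27 of 27 moved by less than 1 SE without centring and 27 of 27 on the mode. The direct sample alone moved 12 and the indirect path alone 24 by at least 1 SE, and no called value changed sign. Both shifts are set by the closure of a gene, so its 3 values move together and are not separate checks. The direct sample moved HXT11, HXT12, CSS3 and YIL171W, and the indirect path moved every gene but ENB1. With whole-number cells set to missing, 6 values of the 4 genes concerned were left and all 6 moved by at least 1 SE. Of these, 3 that were not called changed sign: CSS3 over Sc1 from −0.39 to 0.032, HXT11 over Sc2 from −0.26 to 0.29 and HXT12 over Sc2 from 0.45 to −0.015. Each pair of strains has 1 value, and no replicate was left out.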

Other observations

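The closures of HXT11 and HXT12 were of opposite sign and nearly equal size, −1.66 and 1.41. The mean of both genes was 2.10 for R2 IVo over Sc1, 0.14 for R2 IVo over Sc2 and −2.09 for Sc1 over Sc2, with a closure of −0.13. With the Sc1 over Sc2 values of the genes exchanged, an alternative added after the values were seen, the closures would be −0.12 for HXT11 and −0.13 for HXT12. With the R2 IVo over Sc1 values exchanged they would be −0.43 and 0.18, and with the R2 IVo over Sc2 values exchanged −1.35 and 1.10. Both closures always sum to the same value, so the exchange only divides it between the genes. Under the first exchange the Sc1 over Sc2 ratio of −2.86 would be that of HXT12 and −1.32 that of HXT11. The values are used as deposited throughout, and whether the entries were exchanged was not tested.

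At the chromosome XV end the outermost ORFs AAD15 and YOL166C were at 0.33 ± 0.063 and 0.23 ± 0.063 over Sc1 and 0.43 ± 0.063 and 0.37 ± 0.063 over Sc2 (SE, 3 samples each). Only AAD15 over Sc2 was called among these 4 values (limma adjusted p = 0.0464, against 0.148 for AAD15 over Sc1 and 0.354 and 0.0847 for YOL166C), and both comparisons share the R2 IVo DNA. The 4 ORFs between YOL160W and AAD15, PAU20, YOL162W, YOL163W and BDS1, were between 0.007 and 0.069 over Sc1 and between −0.053 and 0.13 over Sc2.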
